A study of Homo sapiens with 6 samples.

Results

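The FOS, JUN and BATF3 genes encode subunits of AP-1, the transcription factor that binds as a dimer of leucine-zipper proteins. The 8 genes FOS, FOSB, FOSL1, FOSL2, JUN, JUNB, JUND and BATF3 were taken by symbol from a table of 16809 genes, and all 8 were found there and passed the filter on low values (1 TPM or more when averaged over all 6 libraries). The table holds TPM, a length-corrected unit that gives each gene its share of all transcripts in a library. The libraries came from CAL-27, a human tongue squamous carcinoma line, in 2 groups of 3. One group had received elesclomol-Cu (ES-Cu) for 24 h and the other was the normal control. Elesclomol is an ionophore that carries copper into cells. It was combined with copper at equal ratio to examine gene expression in cuproptosis, a copper-dependent cell death. The sources used here give no doses, no solvent for the controls and no number of separate cultures, and CAL-27 is a single tumour line. P-values therefore rest on the variation among these libraries, part or all of which may be technical.

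JUN proteins can pair with one another or with a FOS protein, whereas FOS proteins need a JUN partner to bind DNA. The dimers recognise the TRE, TGACTCA, and the cyclic AMP response element (CRE), TGACGTCA. FOS and FOSB are classical immediate early genes, switched on by growth factor and stress kinases and then silenced by feedback. FOSL1 is maintained by sustained ERK signalling and is known for high expression in squamous carcinomas. BATF3 lacks a transactivation domain and pairs with JUN proteins, mostly in immune cells.

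The start regions of FOS, FOSB and JUN are shown because these genes rose, and that of FOSL2 because it fell. Each runs from 250 bases before to 50 bases after the RefSeq gene start (build GRCh38.p14), written 5′ to 3′ on the gene's strand. Capitals mark the CRE half-site TGACG or its reverse complement CGTCA, the TATA motif TATAAA, the TRE-like motif TGACATCA and the TRE, where a gene has them.
FOS, chr14:75278578-75278877, plus strand: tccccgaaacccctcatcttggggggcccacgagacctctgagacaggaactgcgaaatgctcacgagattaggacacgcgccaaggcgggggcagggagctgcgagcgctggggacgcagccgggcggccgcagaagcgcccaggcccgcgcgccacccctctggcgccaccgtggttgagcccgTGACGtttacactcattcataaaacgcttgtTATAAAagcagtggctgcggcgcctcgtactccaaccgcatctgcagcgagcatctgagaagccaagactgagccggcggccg
FOSB, chr19:45467746-45468045, plus strand: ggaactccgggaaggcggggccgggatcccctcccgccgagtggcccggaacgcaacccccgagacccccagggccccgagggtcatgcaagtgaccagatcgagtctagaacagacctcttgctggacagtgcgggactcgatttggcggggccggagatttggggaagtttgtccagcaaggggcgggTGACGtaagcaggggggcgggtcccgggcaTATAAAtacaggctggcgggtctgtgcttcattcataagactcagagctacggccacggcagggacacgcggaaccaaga
JUN, chr1:58783998-58784297, minus strand: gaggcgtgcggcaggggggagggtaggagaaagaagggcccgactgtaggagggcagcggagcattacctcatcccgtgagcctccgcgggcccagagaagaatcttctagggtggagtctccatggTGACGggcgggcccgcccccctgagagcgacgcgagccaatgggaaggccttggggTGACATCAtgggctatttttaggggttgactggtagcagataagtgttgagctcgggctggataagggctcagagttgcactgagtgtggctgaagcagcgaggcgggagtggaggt
FOSL2, chr2:28392608-28392907, plus strand: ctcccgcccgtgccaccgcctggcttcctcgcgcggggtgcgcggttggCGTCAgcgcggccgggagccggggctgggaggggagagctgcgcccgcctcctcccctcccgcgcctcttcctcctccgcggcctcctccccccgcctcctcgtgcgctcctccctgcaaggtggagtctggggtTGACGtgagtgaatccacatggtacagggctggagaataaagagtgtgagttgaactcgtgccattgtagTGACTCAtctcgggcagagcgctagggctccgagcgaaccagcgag
FOS and FOSB share a layout, with TGACG starting 64 and 60 bases before the gene start and TATAAA 33 and 30 bases before it. JUN has TGACATCA 67 bases before its start and TGACG at 123. FOSL2 has the TRE at 4 bases after its start and half-sites at 201 and 66 bases before it.

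Matches on either strand were counted over the 35116 RefSeq start regions of the same length. Of the 6 members with an entry, all 6 held TGACG, which 24.6% of all start regions hold. TATAAA was found in FOS, FOSB and JUNB and in 11.5% of all regions. The full CRE, which contains the half-site on both strands, was found in JUND, 200 bases before its start, and in 1.85% of all regions. The TRE was present in 4.95% of all regions and TGACATCA in 2.61%. None of the 6 windows held a CArG box, the serum response element core (1.29% of all regions), or a perfect heat shock element of 3 units (0.490%). The windows end 250 bases before the start, and elements further upstream were not searched. The metal response element core, TGCACNC or TGCGCNC, occurred in FOSL2, JUNB and JUND and in 29.6% of all regions. FOSL1 and BATF3 had no entry. These motifs were chosen with the sequences in view.

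Between 14959 and 15051 genes lay above 0 in each library. Depth is unknown, because TPM keeps no read totals. Libraries correlated across genes at 0.994 to 0.995 within groups and 0.937 to 0.939 between groups on the log2(TPM + 1) scale, where genes are not independent replicates. Of 10 squamous epithelial markers, all 10 were detected. As deposited 2 were called higher and 6 lower in ES-Cu (20% and 60%, beside 13.6% and 70.0% of all tested genes). This split depended on the scalings given below. It was 7 and 2 after median-of-ratios scaling, beside 38.0% and 35.8% of all tested genes. Under quantile normalization it was 3 and 5, beside 31.7% and 39.2%. TP63, the squamous lineage factor, averaged 24.5 ± 0.922 TPM in ES-Cu and 86.8 ± 1.34 TPM in control cells (mean ± SD, n = 3 per group, as throughout), and the cadherin gene CDH1 71.3 ± 3.01 and 173 ± 2.33 TPM. Both were called lower in each of 3 scalings given below, whereas SFN, at 1233 ± 19.1 TPM in ES-Cu and 640 ± 31.4 TPM in control cells, and KRT6A were called higher in each. KRT5 stood at 853 ± 21.6 TPM in ES-Cu and 853 ± 22.8 TPM in control cells as deposited. It was called higher only after median-of-ratios scaling (log2 fold change 0.56). Of 8 markers of other cell types 7 were in the table. PTPRC, COL3A1, PECAM1 and VWF stayed at or below 0.130 TPM on average in either group. COL1A1 averaged 3.62 and PDGFRB 0.903 TPM in ES-Cu, against 8.36 and 2.23 TPM in control cells. CD68, a lysosomal protein that tumour lines also make, stood at 50.9 ± 2.68 TPM in ES-Cu and 63.6 ± 3.65 TPM in control cells. The 7 summed to between 53.6 and 58.5 TPM in ES-Cu and between 70.2 and 76.7 TPM in control libraries, and their part in the results was not tested. In bulk RNA, fewer cells making a transcript and less transcript per cell cannot be told apart.

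Of the 8 members, 5 were called higher in ES-Cu and 2 lower, and 1 was not called (limma-trend on log2(TPM + 1), Benjamini-Hochberg adjusted p under 0.05 over 11927 tested genes). Of all tested genes 83.7% were called, 13.6% higher and 70.0% lower, so that 62.5% of members were higher beside 13.6% of genes. The members were chosen with earlier results of these data known, so this share is no independent test. The ES-Cu libraries all lay above the control libraries for 5 members and 14.0% of genes, and all below them for 1 member and 70.3% of genes. TPM of a library adds up to a fixed total, and the log2 fold change of the median gene was -0.50. The fits, sums, shares and ratios were therefore also computed after median-of-ratios scaling, where the median gene was at 0.00 and 38.0% of genes were called higher and 35.8% lower. Quantile normalization was the third scaling, with the median gene at -0.07, 31.7% of genes higher and 39.2% lower. After median-of-ratios scaling and after quantile normalization alike, 6 of the 8 members were called higher and 1 lower. "Rose" and "fell" are used below where the call had the same sign in these 3 scalings, which held for 13.5% of tested genes upward and 30.5% downward. FOS, FOSB, FOSL1, JUN and JUND rose, and FOSL2 fell. JUNB and BATF3 did not meet that condition. The members' median log2 fold change was 1.20.

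**Figure D1:**
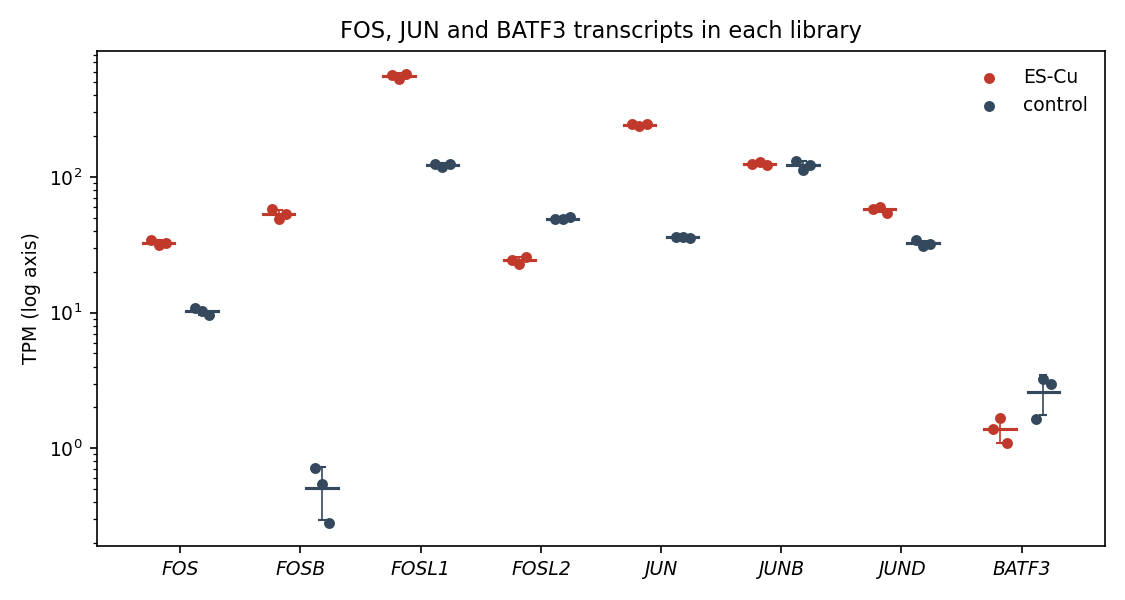
TPM of each member on a log axis in the 3 ES-Cu and 3 control libraries (points), with the group mean (line) and SD (bar). The ES-Cu points of FOS, FOSB, FOSL1, JUN and JUND lie above every control point, those of FOSL2 below, and those of JUNB and BATF3 overlap the control points.

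FOSB, a FOS family member known for stable splice forms that persist after repeated stimulation, showed the widest gap. It was at 57.7, 49.1 and 53.0 TPM in ES-Cu libraries, against 0.71, 0.54 and 0.28 TPM in control libraries. Every control value was under 1 TPM and every ES-Cu value was above 49, so the groups were far apart. Its log2 fold change was 5.18 ± 0.11 (SE; adjusted p = 3.59e-11, limma-trend), the 12th highest of 11927 tested genes. The pseudocount of 1 holds this value down, and with 0.1 it was 6.52. By mean level FOSB stood above 80.7% of tested genes in ES-Cu cells and above 0.352% in control cells. At 0.51 TPM on average in control cells, it passed the filter of 1 TPM only through its ES-Cu values. Its low control rank among tested genes therefore reflects that filter.

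FOS, the founding member and an immediate early gene, had 34.0, 31.6 and 32.9 TPM in ES-Cu libraries, against 10.8, 10.3 and 9.54 TPM in control libraries. The groups did not overlap, and the means differed 3.22-fold. The log2 fold change was 1.59 ± 0.07 (SE; adjusted p = 6.26e-09, limma-trend). FOS thus lay below FOSB in ES-Cu cells and above it in control cells.

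FOSL1, which encodes FRA-1, was the most abundant member in both groups. Its values were 570, 529 and 575 TPM in ES-Cu libraries, against 125, 119 and 125 TPM in control libraries. All 3 ES-Cu libraries lay far above the controls, and the means differed 4.53-fold. The log2 fold change was 2.17 ± 0.04 (SE; adjusted p = 1.53e-11, limma-trend), 81st from the top.

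FOSL2, which encodes FRA-2, was the member that fell. It was at 24.3, 23.0 and 25.7 TPM in ES-Cu libraries, against 48.7, 49.2 and 50.4 TPM in control libraries. The groups did not overlap, and the ES-Cu mean was 0.492 of the control mean. Its log2 fold change of -0.99 ± 0.06 (SE; adjusted p = 4.29e-08, limma-trend) was -0.45 after median scaling and -0.62 under quantile normalization. Relative to the median gene the deposited value was -0.49, and 18.4% of tested genes had a lower fold change.

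JUN, the main partner of FOS proteins and a substrate of JNK, changed most within its family. It had 246, 236 and 244 TPM in ES-Cu libraries, against 36.4, 36.2 and 35.5 TPM in control libraries. The spread within each group was small beside the gap between them. The means differed 6.73-fold, with a log2 fold change of 2.72 ± 0.04 (SE; adjusted p = 1.81e-12, limma-trend), 46th from the top.

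JUND, usually the most constantly expressed JUN gene and often a brake on growth, rose less. It was at 58.3, 60.1 and 54.6 TPM in ES-Cu libraries, against 34.2, 31.0 and 31.9 TPM in control libraries. The groups did not overlap. The log2 fold change was 0.81 ± 0.06 (SE; adjusted p = 2.19e-07, limma-trend).

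JUNB, a weaker activator than JUN that can restrain it, had 124, 128 and 123 TPM in ES-Cu libraries, against 131, 113 and 122 TPM in control libraries. The control values enclosed all ES-Cu values. Its log2 fold change was 0.04 on the deposited scale (95% interval -0.08 to 0.16; adjusted p = 0.529, limma-trend), but median scaling (0.59, adjusted p = 9.65e-06, limma-trend) and quantile normalization (0.27, adjusted p = 0.00206) each gave a call towards higher. The group means of JUNB as deposited differed by less than the SD of the controls.

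BATF3 was the scarcest member in ES-Cu cells, with 1.39, 1.68 and 1.10 TPM in ES-Cu libraries, against 1.63, 3.23 and 2.97 TPM in control libraries. The groups overlapped, since control replicate 1 lay within the ES-Cu range. It was called lower on the deposited scale (log2 fold change -0.57 ± 0.18, SE; adjusted p = 0.0130, limma-trend) and not after median scaling (-0.21, adjusted p = 0.320) or quantile normalization (0.06, adjusted p = 0.784, limma-trend). The call was also lost without control replicate 2 (-0.44, adjusted p = 0.0609) and without control replicate 3 (-0.49, adjusted p = 0.0502, limma-trend). Control replicate 1 thus stood closer to the ES-Cu libraries than the other controls did.

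**Figure D2:**
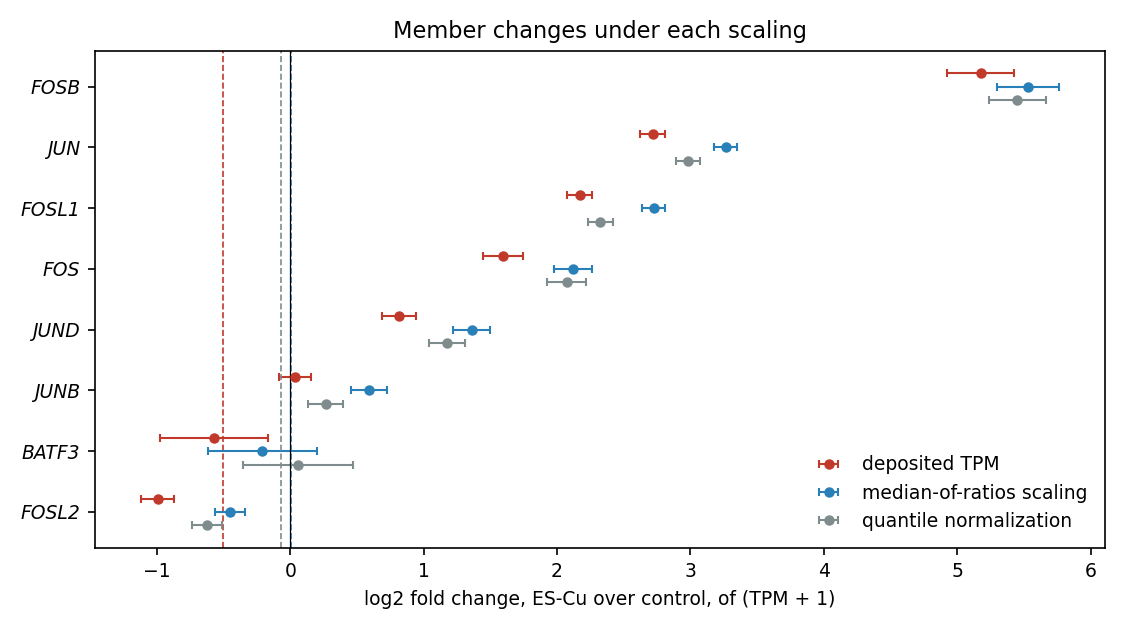
Log2 fold change of (TPM + 1), ES-Cu over control, for each member with its 95% interval from limma, on the deposited scale and after both other scalings. Dashed lines mark the median tested gene of each scaling (-0.50, 0.00 and -0.07). FOSB, JUN, FOSL1, FOS and JUND lie right of 0 and FOSL2 left of it in each scaling, and the intervals of BATF3 after both other scalings cross 0.

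The order of levels differed between groups. In ES-Cu cells it ran FOSL1, JUN, JUNB, JUND, FOSB, FOS, FOSL2 and BATF3, and the library ranges of JUND and FOSB overlapped. In control cells it ran FOSL1, JUNB, FOSL2, JUN, JUND, FOS, BATF3 and FOSB, and FOSL1 and JUNB overlapped. No other neighbours in either order overlapped. JUN therefore moved above JUNB, and FOSB moved above FOS and FOSL2.

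Summed over FOS, FOSB, FOSL1 and FOSL2, the FOS family held 686, 632 and 686 TPM in ES-Cu libraries, against 185, 179 and 185 TPM in control libraries. The sums differed 3.65-fold and did not overlap. JUN, JUNB and JUND summed to 428, 424 and 422 TPM in ES-Cu libraries, against 202, 180 and 189 TPM in control libraries, a 2.23-fold difference. For both sums the exact two-sided permutation test gave p = 0.1. Groups of 3 and 3 libraries cannot give a smaller value, so neither sum can pass 0.05.

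The mix within each family also differed. FOSL1 made up 83.5% ± 0.352 of FOS family TPM in ES-Cu cells and 67.2% ± 0.552 in control cells. FOSL2 made up 3.64% ± 0.0990 in ES-Cu cells and 27.0% ± 0.585 in control cells, and FOSB 7.97% ± 0.389 and 0.279% ± 0.118. FOS took 4.92% ± 0.109 in ES-Cu cells and 5.57% ± 0.370 in control cells, a small difference whose sign turned under quantile normalization (0.45 percentage points). JUN made up 57.0% ± 1.21 of JUN family TPM in ES-Cu cells and 19.0% ± 1.05 in control cells. JUNB held 29.4% ± 0.690 in ES-Cu cells and 64.0% ± 1.19 in control cells. The shares of each of these 6 genes and of JUND did not overlap between groups (exact permutation p = 0.1, two-sided, for each).

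**Figure D3:**
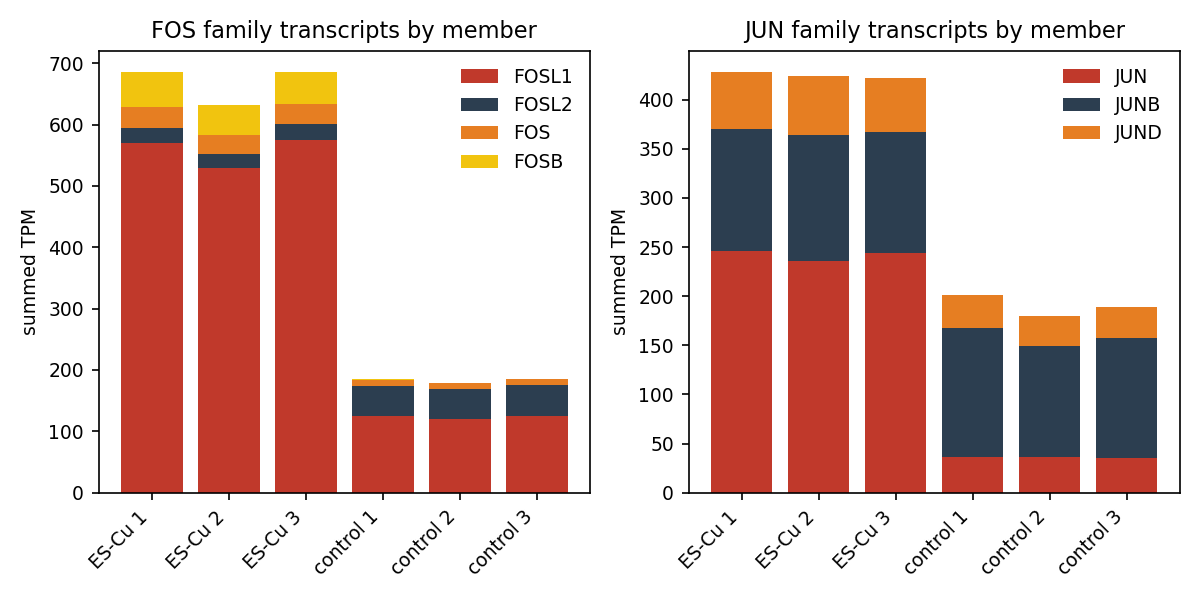
Summed TPM of the FOS family (left) and the JUN family (right) in each library, stacked by member. FOSL1 fills most of each FOS family bar, and JUN takes the place of JUNB as the largest segment of the JUN family bars in ES-Cu libraries.

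Ratios between members were taken within each library, on the log2 scale after adding 1 to each TPM. The log2 ratio of FOSL1 to FOSL2 was 4.46 ± 0.03 in ES-Cu and 1.30 ± 0.04 in control libraries, a difference of 3.16 ± 0.03 (SE). That of FOS to FOSL2 differed by 2.59 ± 0.07 and that of FOSB to FOSL2 by 6.17 ± 0.15. JUN over JUND stood at 2.05 ± 0.09 in ES-Cu and 0.15 ± 0.07 in control libraries. JUNB over JUND was lower, at 1.10 ± 0.05 in ES-Cu and 1.88 ± 0.04 in control libraries. The summed FOS family over the JUN family was 0.65 ± 0.07 in ES-Cu and -0.05 ± 0.06 in control libraries. BATF3 over FOSL2 differed by 0.42 ± 0.25 (SE), with overlapping libraries (exact permutation p = 0.2). That difference was 0.24 after median scaling, 0.69 under quantile normalization, 0.20 with a pseudocount of 0.1 and 0.22 without control replicate 1. The other 6 of the 7 ratios did not overlap between groups (exact permutation p = 0.1, adjusted p = 0.117 over the 7, both two-sided).

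In gene structure JUN, JUNB and JUND have 1 exon in their longest GENCODE transcript, FOS, FOSB, FOSL1 and FOSL2 have 4 and BATF3 has 3. Rising and other members were found in both kinds. FOSL2 has the longest of these transcripts (6708 bases) and BATF3 the shortest (980 bases). JUND had the highest GC content (69.7%) and FOS the lowest (52.6%). No exon of a member overlapped an exon of another gene in GENCODE's basic set. FOSB, JUNB and JUND all lie on chromosome 19 and changed by 5.18, 0.04 and 0.81 on the log2 scale.

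Other leucine-zipper proteins that can join AP-1 dimers or compete with them were split on the deposited scale. Of 11 listed partners 10 were in the table and 8 were tested, with 4 rising and none falling in all 3 scalings, beside 13.5% and 30.5% of all tested genes. On the deposited scale 3 were called lower (37.5%, beside 70.0% of all tested genes), namely ATF2 (-0.65), ATF7 (-0.33) and BATF2 (-0.85). ATF2 was not called after median scaling (-0.11), nor BATF2 under quantile normalization (-0.21). ATF7 was called in neither (0.20 and 0.08). ATF3, a stress-induced repressor and JUN partner, had 119, 114 and 121 TPM in ES-Cu libraries, against 13.9, 12.9 and 12.3 TPM in control libraries. The groups were widely separated (log2 fold change 3.09 ± 0.06, SE; adjusted p = 1.07e-11, limma-trend). All 3 small MAF genes, whose proteins lack a transactivation domain, rose as well. MAFF averaged 112 ± 9.16 TPM in ES-Cu and 23.1 ± 2.08 TPM in control cells, MAFG 61.3 ± 1.26 and 25.0 ± 1.61 TPM, and MAFK 92.5 ± 4.44 and 51.1 ± 2.02 TPM. JDP2, a repressor that pairs with JUN, was at 10.1 ± 0.643 TPM in ES-Cu and 10.6 ± 1.55 TPM in control cells and was not called as deposited (adjusted p = 0.582, limma-trend). With median scaling it was 0.45 (adjusted p = 0.00288, limma-trend) and with quantile normalization 0.49 (adjusted p = 0.00236), both called higher.

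For the kinases and promoter-binding factors upstream of FOS and JUN, the split of calls depended on the scaling. Of 24 listed genes 23 were tested, and 3 rose and 6 fell in all 3 scalings, close to the 13.5% and 30.5% of all tested genes. As deposited 3 of the 23 were called higher and 13 lower, beside 13.6% and 70.0% of all tested genes. After median scaling 15 were higher and 6 lower, beside 38.0% and 35.8%. Under quantile normalization 12 were higher and 9 lower, beside 31.7% and 39.2%. The share called higher was thus near that of all tested genes as deposited and above it after either other scaling. MAP2K3, which activates p38, averaged 132 ± 1.31 TPM in ES-Cu and 76.6 ± 1.95 TPM in control cells. RPS6KA3 and MEF2D also rose, by 0.30 and 0.43 on the log2 scale. MRTFB, a coactivator of the serum response factor SRF, fell to 6.30 ± 0.305 TPM in ES-Cu cells, against 19.1 ± 1.19 TPM in control cells (log2 fold change -1.46). MAPK3, which encodes ERK1, was at 32.0 ± 1.03 TPM in ES-Cu and 70.6 ± 2.27 TPM in control cells. MAP2K5 (-1.10) and the ERK-activated kinase gene RPS6KA1 (-1.02) fell too, as did the CRE-binding factor CREB1 (-1.01) and the p38 gene MAPK14, at 29.2 ± 2.43 TPM in ES-Cu and 54.6 ± 1.18 TPM in control cells (-0.88). MAPK8, which encodes JNK1, stood at 39.1 ± 2.12 TPM in ES-Cu and 37.8 ± 2.03 TPM in control cells (log2 fold change 0.05, adjusted p = 0.497, limma-trend). Median scaling (0.59, adjusted p = 1.98e-05, limma-trend) and quantile normalization (0.41, adjusted p = 2.11e-04) gave a call towards higher. These are transcript levels, and kinase activity was not analysed here.

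Factors that act on the life of AP-1 mRNAs or proteins came next. Of 12 tested genes, 3 rose and 2 fell in all 3 scalings (25.0% and 16.7%, beside 13.5% and 30.5% of all tested genes). As deposited 3 were higher and 8 lower (66.7% lower, near the 70.0% of all tested genes). This became 7 and 2 after median scaling, beside 38.0% and 35.8% of all tested genes. Under quantile normalization it was 5 and 4, beside 31.7% and 39.2%. ZFP36, which binds AU-rich elements and speeds the decay of mRNAs such as FOS, had 26.9, 27.2 and 27.4 TPM in ES-Cu libraries, against 12.8, 12.5 and 12.9 TPM in control libraries. Its groups did not overlap (log2 fold change 1.04 ± 0.06, SE; adjusted p = 4.57e-08, limma-trend). ZFP36L1, a relative, rose by a similar amount, with 77.7 ± 4.43 TPM in ES-Cu and 35.2 ± 0.807 TPM in control cells. FBXW7, a ubiquitin ligase subunit that targets JUN, rose to 12.5 ± 0.645 TPM in ES-Cu cells, against 6.49 ± 0.736 TPM in control cells. COP1, a ligase that also acts on JUN, fell to 45.6 ± 1.59 TPM in ES-Cu cells, against 79.5 ± 3.44 TPM in control cells. DDB1, an adaptor of the same ligase complex, fell by 0.73 on the log2 scale.

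Among 22 genes known as AP-1 targets, 19 were tested, and 12 rose and 2 fell in all 3 scalings (63.2% and 10.5%, beside 13.5% and 30.5% of all tested genes). As deposited, 12 were called higher and 6 lower (63.2% and 31.6%, beside 13.6% and 70.0% of all tested genes). After median scaling 14 were higher and 2 lower, beside 38.0% and 35.8%. Under quantile normalization 13 were higher and 2 lower, beside 31.7% and 39.2%. The list median was 0.78, beside -0.50 for all tested genes. Like the other lists, this one was chosen with earlier results of these data known, so these shares are no independent test. The collagenase gene MMP1 averaged 45.8 ± 3.80 TPM in ES-Cu and 5.29 ± 0.643 TPM in control cells. Its groups did not overlap, and the log2 fold change was 2.90 ± 0.09 (SE; adjusted p = 6.26e-10, limma-trend). MMP10, a stromelysin, averaged 17.8 ± 1.66 TPM in ES-Cu and 2.81 ± 0.211 TPM in control cells. MMP13, of the same family, averaged 3.99 ± 0.746 TPM in ES-Cu and 5.49 ± 0.690 TPM in control cells, with overlapping libraries. It was called lower as deposited (-0.38), but not after median scaling (0.07) or quantile normalization (0.25). HBEGF, a ligand of the EGF receptor, averaged 174 ± 1.25 TPM in ES-Cu and 24.7 ± 0.439 TPM in control cells. VIM, the mesenchymal intermediate filament gene, moved the other way, at 153 ± 3.41 TPM in ES-Cu and 958 ± 16.1 TPM in control cells (log2 fold change -2.64). IL6, a cytokine, also fell (-1.04). CCND1 was called lower as deposited (-0.29), higher after median scaling (0.26) and not under quantile normalization (-0.03). The squamous differentiation genes SPRR1B and TGM1 were called lower as deposited (-0.48 and -0.40) but in neither other scaling. SPRR1B was 0.03 after median scaling and 0.05 under quantile normalization, and TGM1 -0.10 and 0.20. TGM1 was also scarce, at 0.943 ± 0.337 TPM in ES-Cu and 1.54 ± 0.121 TPM in control cells. IVL was at 0.523 ± 0.116 TPM in ES-Cu and 0.530 ± 0.234 TPM in control cells. Most of these genes also answer to other factors, and binding of AP-1 was not analysed here.

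**Figure D4:**
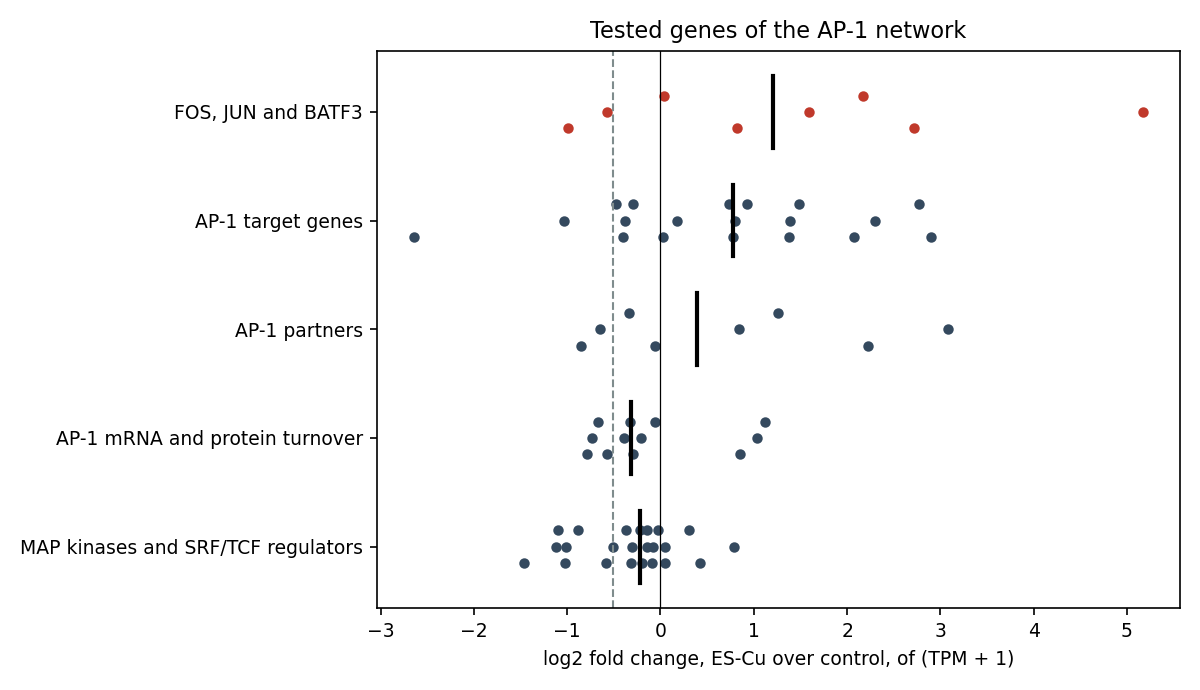
Log2 fold change of (TPM + 1), ES-Cu over control on the deposited scale, for the tested genes among the members, targets, partners, turnover factors and upstream regulators. Each point is a gene, the black bars mark list medians and the dashed line the median of all tested genes (-0.50). The target list has its median at 0.78 and the upstream list at -0.22.

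The genes nearest to each member were found by the Euclidean distance between profiles of log2(TPM + 1), each as a difference from the control mean, over the 6 libraries and 10040 other genes. With 2 groups such a distance mostly reflects the size of the change. Nearest to JUN were HBEGF (0.115) and the stress factor gene DDIT3 (0.171), which averaged 239 ± 6.86 TPM in ES-Cu and 37.6 ± 1.39 TPM in control cells. Nearest to FOS were the cytokine gene LIF (0.0676) and CD55 (0.147), a complement regulator. FOSL1 lay closest to the immediate early gene IER5 (0.123) and the constitutive chaperone gene HSPA8 (0.143). FOSB had no neighbour as close, the nearest being HSPA1B (0.330), a heat shock gene with a near-identical copy, and ZFAND2A (0.419). JUND lay closest to EMP1 (0.0989) and RNF19B (0.108), FOSL2 to ANAPC1 (0.0439) and GRB14 (0.0565), JUNB to LRCH1 (0.0411) and PHRF1 (0.0936), and BATF3 to KRT16 (0.232) and TMEM67 (0.290).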

How the data were processed

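Per the labels' protocols, total RNA of CAL-27 was read single-end over 50 bases on a BGISEQ500. The authors deposited 1 table of TPM, in which every library adds up to the same total. The submitters' processing notes name HISAT, Bowtie2 and GRCm38.p6, a mouse build. The table holds human genes, since 16753 of its 16809 identifiers were found in human RefSeq. No quantifier or annotation is given in the sources used here. TPM keeps no depth, so no counting interval was computed.

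Genes averaging 1 TPM or more were fitted as log2(TPM + 1), using limma 3.58.1 and R 4.3.3 (empirical Bayes with trend, two-sided, Benjamini-Hochberg). All adjusted p-values of genes come from it. The code was tested on simulated data. Sums, shares and ratios were compared with an exact permutation test over libraries. Alternatives were both other scalings, other pseudocounts and filters, no trend, leaving out each library, and a replicate block. Named were all members, up to 4 genes per list with the largest called change and at least 5 TPM in a group, and the 2 nearest genes of each member. MAP2K3, RPS6KA3, MEF2D, CREB1, MAPK8, MAPK14, JDP2, ATF2, ATF7, BATF2, DDB1, IL6, MMP13, CCND1, SPRR1B, TGM1 and IVL were named after their values were seen. So were the cell type markers with values. The members and lists were chosen with earlier results of these data known.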

Additional observations from a re-analysis of the deposited data

How the results depend on the processing

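The log2 fold changes of FOS, FOSB, FOSL1, FOSL2, JUN and JUND kept their direction and call in 14 of 14 alternatives each. JUNB was called after median scaling (0.59) and under quantile normalization (0.27), and was -0.016 without control replicate 2 (adjusted p = 0.774, limma-trend). Leaving out single libraries gave -0.016 to 0.091. BATF3 was -0.21 after median scaling and 0.060 under quantile normalization, and -0.79 to -0.44 with single libraries left out. Over all alternatives the adjusted p ran between 9.65e-06 and 0.784 for JUNB and between 6.29e-04 and 0.784 for BATF3 (limma). Members called lower numbered 1 after median scaling, quantile normalization and a filter of 5 TPM, which removes BATF3, and 1 to 2 with single libraries left out. Partners called lower numbered 1 after either scaling. Upstream genes numbered 15 higher and 6 lower after median scaling and 12 higher under quantile normalization. Turnover genes numbered 7 higher and 2 lower after median scaling and 5 and 4 under quantile normalization. Targets called lower numbered 2 after either scaling, and 3 to 5 with single libraries left out, the lowest without control replicate 1, against 6 as deposited. All genes numbered 4532 higher and 4266 lower after median scaling, and 3780 and 4674 under quantile normalization, against 1628 and 8351 as deposited. The FOS share difference was 0.45 percentage points under quantile normalization, against -0.66 as deposited. The other sums, shares and ratios kept their direction in every alternative run. Same-numbered libraries of the 2 groups did not deviate together (correlations of 0.02, -0.03 and 0.01), and with the replicate block 5 members were called higher and 2 lower, as without it (JUN 2.72, adjusted p = 7.26e-11; BATF3 -0.57, adjusted p = 0.00844, limma-trend). Depth is unknown, which limits BATF3 and the control values of FOSB most.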
